A study of Mus musculus with 3 samples.

Results

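Uroplakin-positive cells of the embryonic kidney were selected by their uroplakin transcripts and numbered 308 of 12131 kept cells, with 76 of 5233 in the Enl-WT library, 207 of 4144 in the Enl-T1 library and 25 of 2754 in the Enl-T1 TDI-11055 library. A kept cell was a barcode with 1000 to 6000 detected genes and at most 10% of its unique molecular identifiers (UMIs, each standing for 1 captured transcript) from mitochondrial genes. Such a cell counted as uroplakin-positive when it had at least 3 UMIs summed over Upk1a, Upk1b, Upk2, Upk3a and Upk3b, from at least 2 of these genes, and no more than 2 UMIs of the collagen genes Col1a1 and Col3a1 together. The levels of the 5 uroplakins therefore chose the cells and are given below as a description only.

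Mouse kidneys had been taken at E15.5 (embryonic day), dissociated and profiled by droplet RNA sequencing of transcript 3′ ends. Enl-WT embryos were Enl+/+ Wt1GFPCre/+. Enl-T1 embryos were Enl flox-T1/+ Wt1GFPCre/+, so that 1 allele of Enl, the gene also named Mllt1 that encodes a chromatin reader, was switched by Cre to a form with a small insertion found in Wilms tumor. Enl-T1 TDI-11055 embryos had the Enl-T1 genotype, and their mothers received 100 mg/kg of TDI-11055, a small molecule that occupies the reader pocket of ENL, orally once a day between E10.5 and E14.5. They are called treated below, and the other 2 libraries are labelled untreated. Embryos of all groups carried the Wt1GFPCre allele, which makes Cre from the Wt1 locus and inactivates that copy of Wt1. Per the study, this driver is active in the progenitors of nephron and stroma. The urothelium is not among these, and whether the T1 form was present in the uroplakin-positive cells was not measured. Each library pooled kidneys of more than 1 embryo. Per the study, the Enl-WT suspension came from 2 embryos and the Enl-T1 suspension from more. There was no map from cells to embryos, so there was 1 library per group, cells were not replicates and no test between groups was made. Intervals below are at 95% and reflect counting error alone.

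The urothelium is the watertight lining of the renal pelvis, ureter and bladder. Its surface is paved by plaques of uroplakins, membrane proteins that form pairs. The tetraspanin Upk1a pairs with Upk2, and the tetraspanin Upk1b with Upk3a or Upk3b, partners with a single membrane span. In the developing kidney the urothelium and the collecting ducts both descend from the ureteric bud, whose tips branch inside the kidney while its stalk becomes the ureter. Upk3b is also a known gene of the mesothelium, the sheet that covers the organ.

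The genes lie apart in the genome (mm10, the same coordinates as GRCm38). Upk1a occupies chr7:30603092-30612847 on the minus strand, Upk1b chr16:38773184-38800328 on the minus strand, Upk2 chr9:44452715-44454976 on the minus strand, Upk3a chr15:85017141-85022547 on the plus strand and Upk3b chr5:136038496-136046487 on the plus strand. Because their transcripts were counted together in the same cells, the 250 bases before the RefSeq transcription start (GRCm38.p6) are shown for the 3 uroplakins that have an entry in the RefSeq table, with that of Sprr1a, the gene that followed Upk3a in the ranking of leading genes given below. Capitals mark matches, on either strand, to any of 5 motifs. The motif of Grainyhead-like factors was taken as AACCNGTT and that of forkhead factors as TGTTTNC. Zinc finger factors were represented by the motif AGATAA for the Gata family and by CCCCNCCC for the Krueppel-like family. The last motif was TATAAA.
Upk1a (chr7:30612735-30612984, minus strand): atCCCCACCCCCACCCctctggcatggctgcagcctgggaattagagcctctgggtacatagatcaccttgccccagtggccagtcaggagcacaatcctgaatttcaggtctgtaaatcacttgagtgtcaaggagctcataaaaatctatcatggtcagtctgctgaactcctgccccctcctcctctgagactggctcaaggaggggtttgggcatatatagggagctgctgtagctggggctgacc
Upk3a (chr15:85016891-85017140, plus strand): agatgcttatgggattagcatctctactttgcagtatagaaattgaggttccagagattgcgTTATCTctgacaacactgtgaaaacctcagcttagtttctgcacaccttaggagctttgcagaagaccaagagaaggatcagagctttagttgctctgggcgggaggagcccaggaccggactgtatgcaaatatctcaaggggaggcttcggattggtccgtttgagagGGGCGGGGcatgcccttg
Upk3b (chr5:136038246-136038495, plus strand): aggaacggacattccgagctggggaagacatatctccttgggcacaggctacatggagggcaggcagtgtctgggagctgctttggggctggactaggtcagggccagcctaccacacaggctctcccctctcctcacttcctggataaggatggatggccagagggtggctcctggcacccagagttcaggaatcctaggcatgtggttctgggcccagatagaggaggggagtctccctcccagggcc
Sprr1a (chr3:92485882-92486131, minus strand): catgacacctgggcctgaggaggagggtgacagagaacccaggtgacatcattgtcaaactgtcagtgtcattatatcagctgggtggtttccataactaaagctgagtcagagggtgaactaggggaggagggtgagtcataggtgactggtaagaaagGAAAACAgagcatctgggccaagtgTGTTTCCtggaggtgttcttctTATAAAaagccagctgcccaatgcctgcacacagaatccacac
Upk1a held 2 overlapping Krueppel-like matches, Upk3a held 1 Krueppel-like and 1 Gata match, Upk3b held none of the 5 motifs, and Sprr1a held 2 forkhead matches and TATAAA. The capital run at the start of Upk1a covers both of its matches. Of 23 genes looked for (the uroplakins and the leading genes), 14 had an entry. Among these 14, the Krueppel-like motif was found before 9, the forkhead motif before 5, and the Grainyhead-like, Gata and TATAAA motifs before 1 each. Of 32817 such windows in the table, 30.8% held the Krueppel-like motif, 17.8% the forkhead motif, 1.78% the Grainyhead-like motif, 9.99% the Gata motif and 12.4% TATAAA. A match is a run of letters, not a bound site.

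The libraries differed in depth, and so did the uroplakin-positive cells in them. Their median UMI count was 5525.5 in Enl-WT, 14013 in the Enl-T1 library and 18156 in the treated library, and their median number of detected genes was 2569.5, 4065 and 4843. Together they held 557867 UMIs in Enl-WT, 3193942 in the Enl-T1 library and 464426 in the treated library. Their median mitochondrial share was 7.14%, 5.95% and 4.32%, and the median share of ribosomal protein UMIs was 11.6%, 19.6% and 19.1%, beside 16.5%, 26.8% and 27.9% in all kept cells. The libraries shared 5 (Enl-WT and Enl-T1), 8 (Enl-WT and the treated library) and 7 (Enl-T1 and the treated library) barcode sequences among kept cells, and none of these pairs was uroplakin-positive in both.

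Members at the edge of the rule in uroplakin UMIs were a larger part of Enl-WT than of Enl-T1, and more cells lay at its edge in the number of genes. The median member had 7 uroplakin UMIs in Enl-WT (range 3 to 51), 21 in the Enl-T1 library (3 to 309) and 13 in the treated library (3 to 46). Exactly 3 UMIs were held by 11 of 76, 10 of 207 and 2 of 25 members, and a minimum of 5 UMIs left 58, 192 and 23. Just outside, 9, 15 and 4 kept cells had 2 UMIs from 2 genes. A further 59, 112 and 34 kept cells had 3 or more UMIs of a single uroplakin gene, which was Upk3a in 59, 109 and 33 of them. The collagen limit removed 0, 4 and 0 cells.

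Uroplakin-positive cells made up a larger share of the Enl-T1 library than of the other libraries. The share was 1.45% of kept cells in Enl-WT (exact binomial interval 1.15 to 1.81), 5.00% in the Enl-T1 library (4.35 to 5.70) and 0.908% in the treated library (0.588 to 1.34). Enl-T1 stood 3.54 percentage points above Enl-WT (2.80 to 4.31), and the treated library differed from Enl-T1 by -4.09 points (-4.86 to -3.31). When every kept cell was thinned at random to 2000 UMIs before the rule was applied, 39 cells (0.759%), 76 cells (1.84%) and 3 cells (0.110%) met it. The order of the libraries was the same, and the differences were 1.08 points (0.605 to 1.59) and -1.73 points (-2.20 to -1.29). Against the neighbouring epithelium, members were 23.0% of members plus collecting duct cells in Enl-WT (18.6 to 28.0), 38.3% in the Enl-T1 library (34.2 to 42.6) and 8.42% in the treated library (5.52 to 12.2). Members that also met the collecting duct rule given below counted as members alone. Cells were not thinned for these shares.

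Transcripts that differ between female and male embryos were not in the same mix in each library. Cells with UMIs of Xist, made from the inactive X chromosome of females, and none of Y-linked genes are called Xist cells here, and those with the reverse pattern Y-linked cells. These calls read free RNA and depth as well as the embryo: both kinds of UMI were found in 3.41%, 2.79% and 2.67% of the other kept cells and in 5, 8 and 0 members, and neither kind in 14, 6 and 4 members. Among uroplakin-positive cells that could be assigned, 18 of 57 were Xist cells in Enl-WT (31.6%), 180 of 193 in the Enl-T1 library (93.3%) and 18 of 21 in the treated library (85.7%). Among the other kept cells the Xist share was 36.4%, 81.0% and 49.4%. Of Xist cells, 1.30% were uroplakin-positive in Enl-WT (0.771 to 2.04), 5.93% in the Enl-T1 library (5.12 to 6.83) and 1.86% in the treated library (1.11 to 2.92). Of Y-linked cells, 1.60% were uroplakin-positive in Enl-WT (1.14 to 2.19), 1.90% in the Enl-T1 library (1.02 to 3.23) and 0.307% in the treated library (0.0634 to 0.896). Enl-T1 minus Enl-WT was thus 4.63 points among Xist cells (3.53 to 5.67) and 0.299 points among Y-linked cells (-0.761 to 1.71). Markers of the layers around the urothelium (7 genes of ureteric smooth muscle and mesenchyme) summed in the other kept cells to 150 CPM in Enl-WT, 152 in the Enl-T1 library and 41.5 in the treated library. The part of embryo mix, free RNA and the amount of ureter in a dissection in the shares was not tested.

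**Figure D1:**
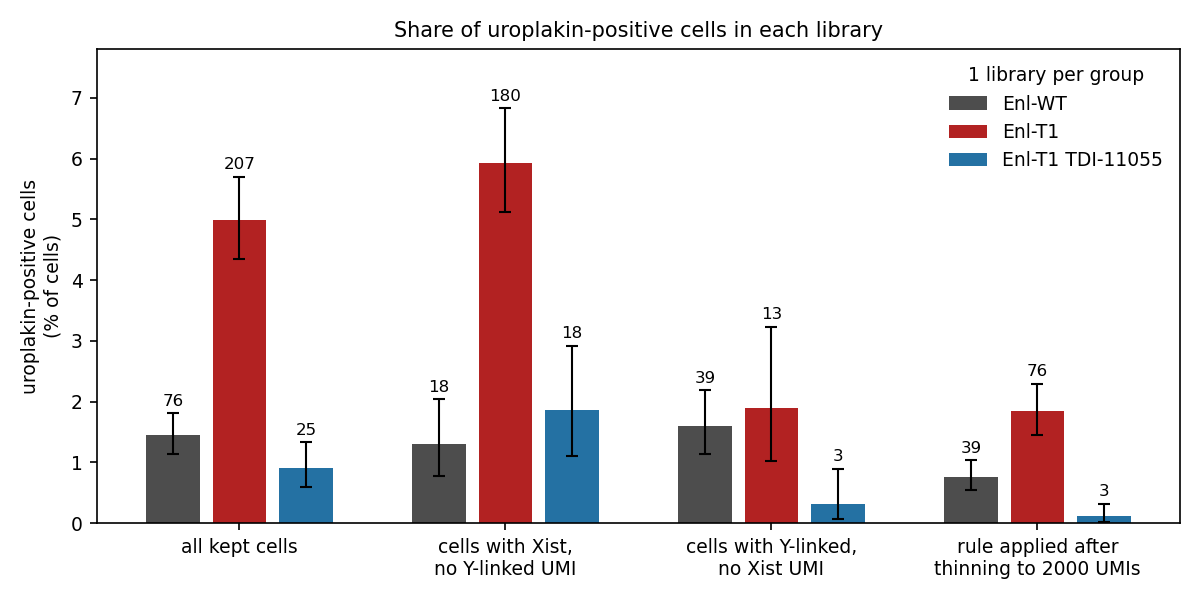
Share of uroplakin-positive cells (y axis, percent of the cells named on the x axis) in the Enl-WT (grey), Enl-T1 (red) and treated (blue) libraries. Bars are the shares, error bars the exact 95% binomial intervals, and the digits over each bar the number of uroplakin-positive cells; Enl-T1 is highest in all kept cells (5.00%) and in Xist cells (5.93%), and its interval overlaps that of Enl-WT in Y-linked cells.

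Apart from the genes of the rule, the cells carried markers of urothelium. Of 15 urothelial genes outside the rule, 15, 15 and 14 had at least 1 UMI in the members of Enl-WT, Enl-T1 and the treated library, and their summed level was 4116, 5349 and 4597 CPM (UMIs of a gene per 1000000 UMIs of the same cells). Krt19, a keratin of simple and ductal epithelium, stood at 1167 CPM in Enl-WT (1079 to 1260), 1946 in the Enl-T1 library (1898 to 1995) and 1570 in the treated library (1458 to 1688). The same 15 genes summed to 1955, 1792 and 1280 CPM in collecting duct cells and to 52.5, 47.3 and 16.2 CPM in endothelial cells, so that much of the list was shared with the collecting duct. Endothelial cells, which should lack Krt19, had 3.85, 12.2 and 2.31 CPM of it. Foxa1, a forkhead factor of urothelial differentiation, stood at 156, 141 and 133 CPM, and its intervals overlapped among all 3 libraries. Krt5, the keratin of basal cells of mature urothelium, had 1, 1 and 0 UMIs, while Trp63, a transcription factor of basal and intermediate cells, had 15, 66 and 4. Krt20, a keratin of superficial umbrella cells, had 10, 49 and 1. Outside the rule, the label urothelial therefore rested on the sum of this list, which was higher in members than in collecting duct cells of each library. Krt19, Krt7, Fxyd3, Klf5 and Foxa1 were also among the genes that led members over all other kept cells, as given below. Krt5, the defining gene of mature basal cells, was at or near 0.

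Markers of most other cell types were low, with the collecting duct and erythroid lists as the main exceptions. The 10 collecting duct genes summed to 1040, 1266 and 1481 CPM, beside 1727, 2297 and 1398 CPM in collecting duct cells, and the intervals of both kinds of cell overlapped in the treated library. In ureteric tip cells the same 10 genes summed to 1892, 2545 and 2170 CPM, so the list did not separate collecting duct from tip. Within that list Fxyd4, a regulator of the sodium pump, stood at 518, 859 and 954 CPM, whereas the water channel Aqp2 had 2, 22 and 0 UMIs. A further 9, 34 and 6 members also met the rule used here for collecting duct cells (at least 3 UMIs from at least 2 of Aqp2, Hsd11b2 and Fxyd4). Summed levels were 43.0, 20.7 and 12.9 CPM for the 8 ureteric tip genes, 19.7, 7.51 and 8.61 for the 7 stromal genes, 3.59, 16.0 and 0 for the 5 endothelial genes, and 111, 81.4 and 32.3 for the 9 mesothelial genes. Msln, which mesothelium and some other epithelia make, carried most of the last sum, and 0, 1 and 0 members met the mesothelium rule (at least 3 UMIs from at least 2 of Msln, Lrrn4, Nkain4, Gpm6a and Bnc1). The 6 erythroid genes summed to 1196, 858 and 1100 CPM, below the 1950, 1480 and 2489 CPM of the other kept cells. The 5 podocyte genes summed to 113 CPM in Enl-WT, against 12.2 and 15.1 in the other libraries, and the 6 nephron progenitor genes to 68.1, 4.07 and 15.1 CPM. The 7 genes of ureteric smooth muscle and mesenchyme summed to 34.1, 34.1 and 60.3 CPM. In treated members (40.1 to 87.1) this was not below the 41.5 CPM of the other kept cells.

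The genes that led uroplakin-positive cells over all other kept cells were ranked by the lowest of the 3 libraries' folds, with 10 CPM added on each side. Upk3a led with 37.6-fold, 33.3-fold and 33.4-fold in Enl-WT, Enl-T1 and the treated library. Next came Sprr1a, a small proline-rich protein of cornifying and stressed epithelium, with 27.5-fold, 23.5-fold and 34.5-fold. Fxyd3, a regulator of the sodium pump, followed with 16.8-fold, 15.2-fold and 32.4-fold, and Krt19 with 14.2-fold as its lowest value. Ctse, which encodes the protease cathepsin E, had 16.1-fold, 13.2-fold and 15.7-fold. Transcription factors among the first 20 were Foxq1 (lowest fold 11.7), Klf5 (6.84) and Foxa1 (6.65). Also among them were Rab27b (7.77), a small GTPase that carries uroplakin vesicles, Snx31 (7.31), a sorting nexin that binds uroplakins, and Mal (6.79), a proteolipid of apical transport. At the cell surface, the list held Tspan8 (8.40), a tetraspanin, Perp (7.04), a desmosomal protein, and Parm1 (6.20), a mucin-like protein. The others were S100a6 (11.6), Sfn (11.2), Upk1b (9.67), Apela (8.43), Krt7 (7.65) and Hspb1 (6.40). Since the same cells gave the ranking, these folds are a description.

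**Figure D2:**
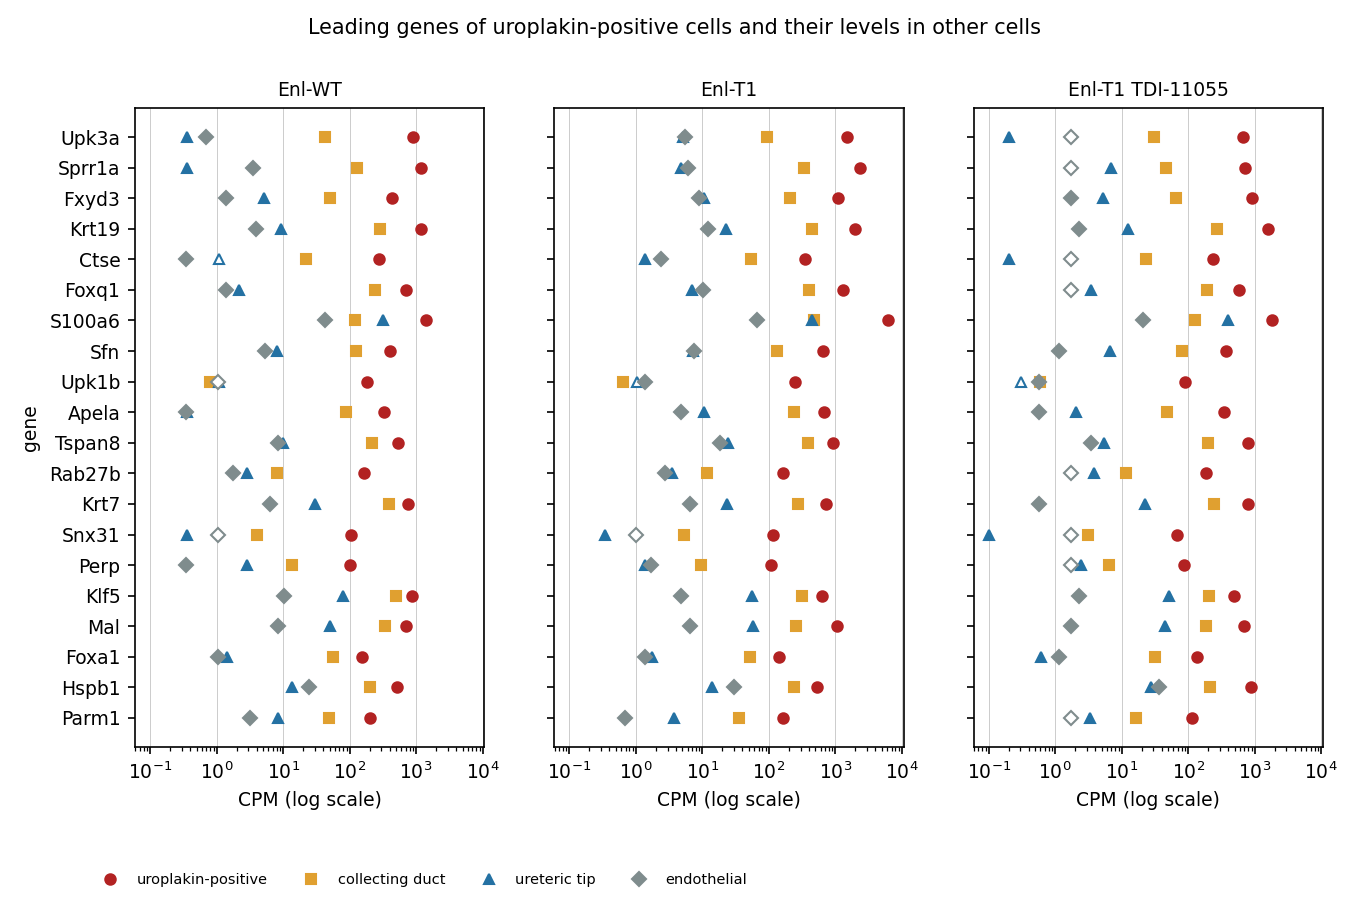
Levels of the 20 leading genes (y axis) in uroplakin-positive (red circles), collecting duct (yellow squares), ureteric tip (blue triangles) and endothelial cells (grey diamonds) of each library, in CPM on a log scale (x axis). Open symbols had no UMI and are drawn at the level of 3 counts; uroplakin-positive cells stand highest for each gene, and collecting duct cells come next except for Upk1b and S100a6, for example S100a6 at 119 CPM in collecting duct and 316 CPM in ureteric tip cells of Enl-WT.

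The uroplakins themselves were not detected in equal numbers of cells. Upk3a was found in 72 of 76 members in Enl-WT (94.7%), 202 of 207 in the Enl-T1 library (97.6%) and 24 of 25 in the treated library (96.0%). Upk1b was found in 43 (56.6%), 127 (61.4%) and 19 (76.0%) members, and Upk1a in 42 (55.3%), 118 (57.0%) and 8 (32.0%). Upk2, the partner of Upk1a, was found in 24 (31.6%), 89 (43.0%) and 4 (16.0%). Upk3b was found in 33 (43.4%), 141 (68.1%) and 12 (48.0%). Depth differed between the libraries as given above. All 5 genes were detected in 7, 52 and 2 members. Upk3a and Upk3b without the other 3 made up 14 (18.4%), 36 (17.4%) and 3 (12%) members, which is the combination of the Upk1b partners without Upk1b.

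In level, Upk3a stood at 894 CPM in Enl-WT (818 to 977), 1504 in the Enl-T1 library (1462 to 1547) and 672 in the treated library (599 to 751). In collecting duct cells Upk3a stood at 42.2, 93.5 and 31.0 CPM, and in endothelial cells at 0.700, 5.4 and 0 CPM. Upk1a stood at 186, 202 and 25.8 CPM, Upk1b at 181, 250 and 88.3 CPM, Upk2 at 64.5, 101 and 10.8 CPM, and Upk3b at 96.8, 107 and 40.9 CPM. The treated library was lowest for all 5 genes. The rule took the same minimum of UMIs in every library although the libraries differed in depth, so these levels are conditional on it.

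Members with few and with many uroplakins detected differed in genes that the rule did not use, in each of the 3 libraries. There were 41, 81 and 15 members with 2 uroplakins, 15, 41 and 5 with 3, and 20, 85 and 5 with 4 or 5. Fxyd4, a collecting duct gene, was lower with each step of this order in every library, with 771, 374 and 88.1 CPM in Enl-WT, 1491, 855 and 387 CPM in Enl-T1, and 1253, 735 and 280 CPM in the treated library. In each library the Fxyd4 interval at 2 uroplakins lay above that at 4 or 5. Hsd11b2, the steroid enzyme of the collecting duct, stood at 35.6, 19.7 and 0 CPM in Enl-WT and at 23.4, 13.2 and 5.41 CPM in Enl-T1.

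Snx31, the sorting nexin, was higher with each step in every library. It stood at 48.6, 138 and 197 CPM in Enl-WT, 42.3, 71.2 and 187 CPM in Enl-T1, and 39.6, 74.5 and 151 CPM in the treated library. Rab27b stood at 84.2 CPM with 2 uroplakins and 312 CPM with 4 or 5 in Enl-WT, and at 65.7 and 250 CPM in Enl-T1, but at 133, 266 and 248 CPM in the treated library, where it was not higher at the last step. Mal likewise was higher with each step in Enl-WT (577, 718 and 1003 CPM) and Enl-T1 (729, 975 and 1315 CPM) and not in the treated library (580, 905 and 798 CPM). Psca, a surface protein held by a lipid anchor, was found almost entirely in members with 4 or 5 uroplakins: all 6 of its UMIs in Enl-WT and 372 UMIs in Enl-T1, against 15 with 2 uroplakins and 11 with 3. Krt20 followed the same pattern, with 9 of its UMIs in that class in Enl-WT and 47 in Enl-T1, against 1 each in the other Enl-T1 classes. Krt7 stood at 716, 758 and 827 CPM in Enl-WT and 595, 702 and 831 CPM in Enl-T1, where the intervals at 2 and at 4 or 5 uroplakins did not overlap. S100a6 was higher with each step in all 3 libraries, from 849 to 2698 CPM in Enl-WT, 3070 to 9060 in the Enl-T1 library and 1329 to 2749 in the treated library. Sprr2f was lowest with 4 or 5 uroplakins, at 61.0 CPM against 201 and 384 in Enl-WT and 723 CPM against 1061 and 1235 in Enl-T1. Deeper cells can show more uroplakins: the median UMI count of the 3 classes was 4727, 5704 and 6257 in Enl-WT, 12063, 13596 and 15732 in Enl-T1, and 19481, 17981 and 17631 in the treated library, where the order of depth was the reverse. The classes were set by detection and were not tested.

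**Figure D3:**
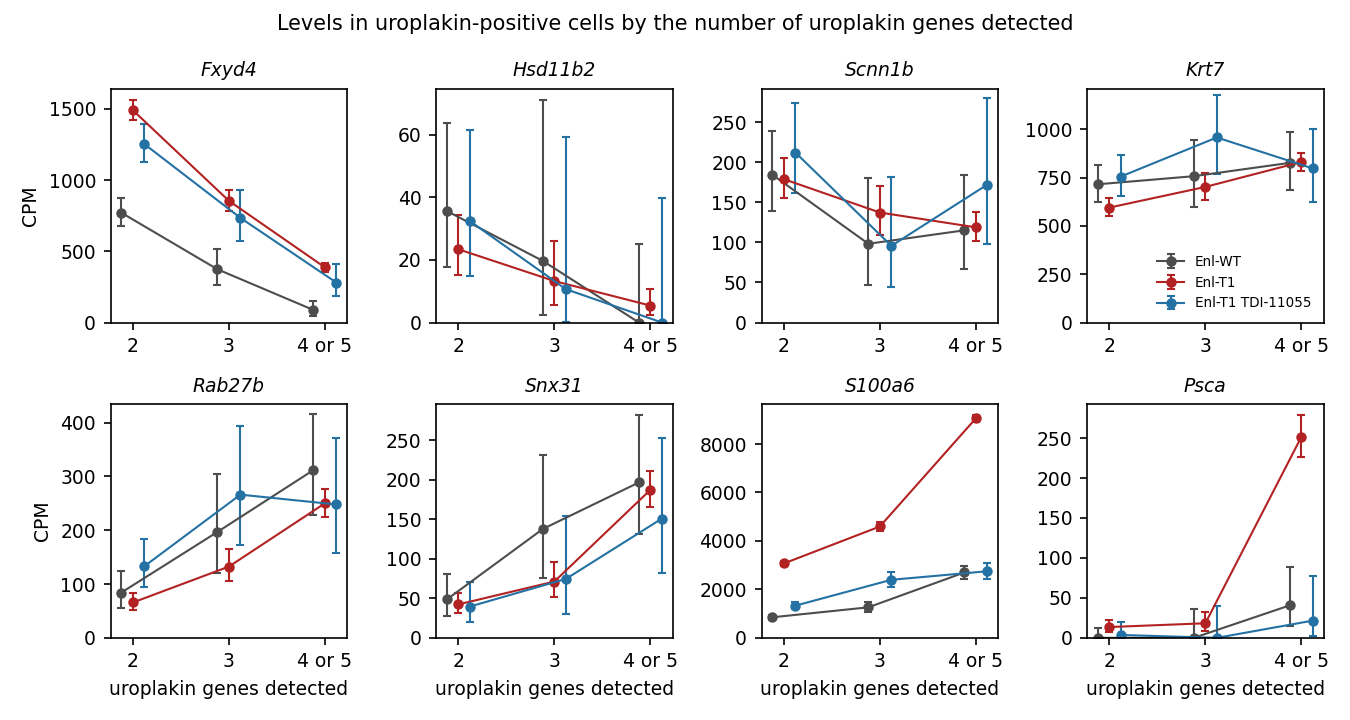
Levels of 8 genes (y axes, CPM) in uroplakin-positive cells by the number of uroplakin genes detected in the cell (x axes) in Enl-WT (grey), Enl-T1 (red) and treated (blue). Points are CPM of the summed cells and error bars exact 95% Poisson intervals; Fxyd4 is lowest and Snx31 highest at 4 or 5 uroplakins in all 3 libraries, and Psca reaches 251 CPM there in Enl-T1.

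The comparison of Enl-T1 with Enl-WT members asked which genes differed in the mutant library. Of 9121 genes with at least 30 UMIs over both libraries, 413 (4.53%) were at least 2-fold higher and 996 (10.9%) at least 2-fold lower in Enl-T1. In any size, 2984 (32.7%) were higher and 6137 (67.3%) lower, and the median log2 ratio of all of them was -0.29, a ratio of 0.815. A gene with UMIs in only 1 of the libraries counted as past 2-fold: there were 11 such genes, and for 3 of them the fold against a floor of 3 counts was under 2. With median-of-ratios scaling, which sets that median to 0, the counts were 739 higher and 392 lower, so levels below are best read against the median.

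Among the genes that ranked highest in Enl-T1 members were Psca, gasdermins, a small proline-rich protein, S100a6 and Spp1. Psca stood at 10.8 CPM in Enl-WT (3.95 to 23.4) and 125 in Enl-T1 (113 to 137), which was 11.6-fold higher (5.28 to 31.8). It had UMIs in 5 and 57 members, and at 2000 UMIs per cell in 1.32% and 11.2% of them, against 0 of 380 and 0 of 245 endothelial cells (upper limits 0.966% and 1.49%). Gsdmc3, a gasdermin, stood at 34.1 and 250 CPM, 7.33-fold higher (4.66 to 12.2), and its neighbour Gsdmc2 at 134 and 409 CPM, 3.04-fold higher (2.41 to 3.89). The gasdermin C genes are near-identical copies, so reads may be split among them. Sprr2f, a small proline-rich protein that shares reads with its gene family, stood at 197 and 937 CPM, 4.75-fold higher (3.93 to 5.80). Fam25c had 1 UMI in Enl-WT and 152 in Enl-T1, a ratio of 26.5 (4.69 to 1055). S100a6, a calcium-binding protein, stood at 1413 and 6133 CPM, 4.34-fold higher (4.04 to 4.67). Spp1, the secreted matrix protein osteopontin, stood at 14.3 and 195 CPM, 13.6-fold higher (6.87 to 31.7).

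Several of these genes stood higher in Enl-T1 in other cells as well. In collecting duct cells Gsdmc2 stood at 16.3 and 87.4 CPM, Gsdmc3 at 8.77 and 52.1, Sprr2f at 170 and 541, S100a6 at 119 and 480, and Spp1 at 5.18 and 23.5, whereas Psca stood at 0.398 and 0.841. The intervals of Gsdmc2, Gsdmc3, Sprr2f and S100a6 did not overlap between the 2 libraries in either kind of cell. A second set of genes was higher in Enl-T1 in every kind of cell examined. Pam16, a subunit of the mitochondrial import motor, had 0 UMIs in Enl-WT members and 164 in Enl-T1, at least 9.55-fold higher with 3 counts over the Enl-WT members as the floor. In endothelial cells Pam16 stood at 0.350 and 68.6 CPM. Dpm3, Atp5k and Gm10076 behaved alike, with 7.10-fold, 4.50-fold and 9.65-fold in members, while their endothelial levels were 32.9 and 95.6, 104 and 326, and 3.85 and 80.7 CPM.

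Several of the genes that were lowest in Enl-T1 members against Enl-WT turned on few barcodes. Of 39 UMIs of Robo2, an axon guidance receptor, in Enl-WT, 37 lay in the 9 members with doublet scores among the highest of that library, and so did 37 of 41 UMIs of Vcan, a matrix proteoglycan. Without the barcodes of high doublet score in each library, the log2 ratio was -0.24 for Robo2 and 0.51 for Vcan, against -4.22 and -2.29 with them. Cdkn1c, a cell cycle inhibitor, went from -2.70 to -0.78, Gas1 from -3.00 to -1.24 and Nrp1 from -2.96 to -1.28. For 4 other genes the ratio moved less when high doublet scores were left out. Mme, a surface peptidase, went from -3.00 to -2.70, Cgnl1, a junction protein, from -2.27 to -2.21, Ncam1, an adhesion molecule, from -2.28 to -1.95, and Gm26917, a long noncoding RNA, from -2.05 to -1.77. With each member weighted equally, however, Gm26917 was at -0.18, while Mme, Cgnl1 and Ncam1 were at -2.49, -2.23 and -1.81. Cgnl1 also stood at 169 and 65.5 CPM in endothelial cells and Gm26917 at 191 and 68.2.

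The transcription factors of urothelium lay near the median of all genes. Of 14 urothelial transcription factors, 3 were higher and 11 lower, with a median log2 ratio of -0.35 beside -0.29 for all genes. Past 2-fold, 0 were higher and 1 lower, beside 4.53% and 10.9% of all genes. Foxa1 had a ratio of 0.903 (0.717 to 1.15), Grhl3 0.950 (0.553 to 1.73), Pparg 1.29 (0.854 to 2.02) and Elf3 1.17 (0.917 to 1.52), so these intervals spanned equal levels. Gata3 (0.774, 0.673 to 0.892), Klf5 (0.740, 0.669 to 0.819) and Ehf (0.662, 0.558 to 0.788) lay below it. Read against the median ratio of all genes (0.815), the intervals of Gata3 and Klf5 spanned that median, that of Ehf lay below it, and those of Pparg and Elf3 lay above it. Of 8 keratins compared, 5 were higher and 3 lower, with a median of 0.29, and Krt4 alone counted as past 2-fold, since it had no UMI in Enl-WT members. Krt19 stood at 1.67-fold (1.54 to 1.81), Krt8 at 1.18-fold (1.12 to 1.26) and Krt7 at 0.963-fold (0.867 to 1.07). Krt4, of stratified epithelium, had 0 and 31 UMIs, at least 1.80-fold higher against the floor of 3 counts, so a 2-fold difference was not shown for it.

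Among 12 genes of uroplakin traffic and the apical membrane, 8 were higher and 4 lower, beside 32.7% of all genes higher, with 0 past 2-fold higher, 1 past 2-fold lower and a median of 0.18. Mal stood at 1.46-fold (1.32 to 1.63), whereas Rab27b (0.993, 0.794 to 1.25) and Snx31 (1.11, 0.836 to 1.48) did not leave equal levels. Of 20 junction genes, 4 were higher and 16 lower, beside 67.3% of all genes lower, with a median of -0.37. Past 2-fold lower were 2 of them, beside 10.9% of all genes. Cldn7, a claudin, was nearly 2-fold higher (629 and 1254 CPM), but it stood at 671 and 1464 CPM in collecting duct cells as well. Tjp1, a tight junction scaffold, was lower (222 and 110 CPM), beside 155 and 87.4 CPM in collecting duct cells.

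Signals between urothelium and mesenchyme were measured for 17 of 21 listed genes, with 1 at least 2-fold higher, 4 at least 2-fold lower and a median of -0.57. Of all genes, 4.53% were at least 2-fold higher and 10.9% at least 2-fold lower, with a median of -0.29. Shh, the ligand by which urothelium patterns the ureteric mesenchyme, stood at 30.5 and 34.4 CPM, a ratio of 1.13 (0.675 to 2.01). Areg, a ligand of the epidermal growth factor receptor, had 5 and 74 UMIs, a ratio of 2.59 (1.06 to 8.20). Jag1, a Notch ligand, stood at 55.6 and 21.0 CPM (0.378, 0.243 to 0.598), and at 133 and 65.4 CPM in ureteric tip cells. Of 12 Hox genes, which specify position along the body, 0 were higher and 12 lower, beside 67.3% of all genes lower. Past 2-fold lower was 1 of them, and their median was -0.44 beside -0.29 for all genes. Among these, Hoxb7 stood at 138 CPM in both libraries after rounding.

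Ribosomal protein genes and genes of the electron transport chain were shifted as groups. Of 82 ribosomal protein genes, 78 were higher and 26 past 2-fold, with a median of 0.72. Of 79 electron transport genes, 73 were higher and 22 past 2-fold, with a median of 0.47. Among 15 immediate early genes, 12 were higher and 3 past 2-fold, with a median of 0.56. Beside these 3 groups, 32.7% of all genes were higher and 4.53% past 2-fold higher, with a median of -0.29. Fos stood at 975 and 1965 CPM in members and at 636 and 1217 CPM in collecting duct cells, and Atf3 at 292 and 598 CPM in members and at 472 and 538 CPM there. The ribosomal share of all kept cells moved in the same direction, as given above, and the part of library preparation was not tested.

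The comparison of the treated library with Enl-T1 members asked which genes differed in the treated library. It shares the Enl-T1 library with the comparison above and rests on 25 treated cells. Of 8964 genes, 368 (4.11%) were at least 2-fold higher and 629 (7.02%) at least 2-fold lower in the treated library, with a median log2 ratio of 0.06. In any size, 4884 (54.5%) were higher and 4080 (45.5%) lower. No UMI in treated members was found for 36 of the genes counted as past 2-fold lower, and for 22 of these the fold against the floor of 3 counts was under 2.

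Psca, Gsdmc2, Gsdmc3, Sprr2f, Fam25c, S100a6 and Spp1 were lower in treated than in Enl-T1 members. They had been named for high levels in the same Enl-T1 library, which by itself favours a lower value in any other library, so their treated levels are best set beside Enl-WT too. Gsdmc2 stood at 409 CPM in the Enl-T1 library and 32.3 in the treated library (18.1 to 53.3), a ratio of 0.0789 (0.0440 to 0.131). Psca had 398 and 3 UMIs, a ratio of 0.0518 (0.0106 to 0.153), and Fam25c had 152 and 1, a ratio of 0.0452 (0.00114 to 0.256). Gsdmc3 (0.121, 0.0657 to 0.204) and Sprr2f (0.186, 0.147 to 0.232) were also lower, as was Sik1 (0.118, 0.0380 to 0.278), a kinase of the salt-inducible family. S100a6 stood at 1828 CPM in treated members, 0.298 times the Enl-T1 level (0.278 to 0.319), and Sprr1a at 715 CPM, 0.307 times (0.274 to 0.343). Spp1 stood at 108 CPM, 0.551 times (0.405 to 0.736), and 35 of its 50 UMIs lay in 5 cells with 4 or 5 uroplakins. In collecting duct cells Gsdmc2 stood at 87.4 and 4.06 CPM, Sprr2f at 541 and 45.3, and S100a6 at 480 and 126. Beside Enl-WT members, treated members stood at 6.46 against 10.8 CPM for Psca, 30.1 against 34.1 for Gsdmc3 and 174 against 197 for Sprr2f, with overlapping intervals. However, all 81 treated UMIs of Sprr2f and all 14 of Gsdmc3 lay in cells with 2 uroplakins. With 3 uroplakins, Sprr2f stood at 384 CPM in Enl-WT (273 to 525) and 0 in 5 treated cells (upper limit 39.3). Its intervals overlapped in the other classes. Treated Gsdmc2 was lower (32.3 against 134 CPM), while treated S100a6 (1828 against 1413 CPM) and Spp1 (108 against 14.3 CPM) were higher, and these intervals did not overlap. Within cells of the same number of uroplakins, Gsdmc2, Sprr2f, S100a6 and Sprr1a also stood lower in treated than in Enl-T1 members. Spp1 did not in each class: with 4 or 5 uroplakins it stood at 171 CPM in Enl-T1 (151 to 193) and 377 in treated members (263 to 525). With 2 uroplakins, Gsdmc2 stood at 358 CPM in the Enl-T1 library and 50.4 in the treated library, Sprr2f at 1061 and 292, and S100a6 at 3070 and 1329. With 4 or 5 uroplakins, of which there were 5 treated cells, S100a6 stood at 9060 and 2749 CPM and Sprr1a at 3047 and 614.

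Krt7 stood at 725 and 805 CPM (1.11, 0.993 to 1.24), Krt18 at 2368 and 2487 CPM (1.05, 0.986 to 1.12), Foxa1 at 141 and 133 CPM (0.948, 0.714 to 1.24) and Rab27b at 164 and 183 CPM (1.12, 0.878 to 1.41). The intervals of these 4 genes spanned equal levels. Of 14 urothelial transcription factors, 5 were higher, 9 lower and 2 past 2-fold lower, beside 7.02% of all genes past 2-fold lower. These were Trp63, with 66 and 4 UMIs (0.417, 0.110 to 1.12), and Rxra, with 185 and 11 (0.409, 0.201 to 0.749). Of 8 keratins, 2 were higher and 6 lower, with a median of -0.52 beside 0.06 for all genes. Those past 2-fold lower, beside 7.02% of all genes, were Krt4 (31 and 1 UMIs), Krt15 (29 and 2 UMIs) and Krt20 (49 and 1 UMIs), and the ratio intervals of Krt4 (0.00544 to 1.33) and Krt15 (0.0548 to 1.87) spanned equal levels. Cldn3, a claudin, was the junction gene past 2-fold higher (104 and 233 CPM). Of 9 collecting duct transport genes, 8 were higher, beside 54.5% of all genes, with a median of 0.33, and Scnn1g, a subunit of the epithelial sodium channel, was past 2-fold (37.3 and 88.3 CPM).

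Among the genes that ranked highest in treated over Enl-T1 members was Hspa1a. This gene, for an inducible heat shock protein, stood at 20.7 and 106 CPM, 5.11-fold higher (3.45 to 7.50). Ddit4, a stress inhibitor of mTOR, had 25 and 17 UMIs, 4.68-fold higher (2.37 to 9.01), Bbc3, a death protein of the BCL2 family, 59 and 33 UMIs, 3.85-fold higher (2.43 to 5.99), and Ddit3, a factor of the unfolded protein response, 46 and 25 UMIs, 3.74-fold higher (2.20 to 6.21). Kif12, a kinesin, stood at 29.1 and 125 CPM, 4.29-fold higher (3.04 to 6.02). Hspa1a was also higher in treated collecting duct cells (31.7 and 192 CPM) and endothelial cells (14.9 and 145 CPM), and Bbc3 in collecting duct cells (34.5 and 65.2 CPM), while Ddit3 stood at 35.7 and 40.8 CPM there. Sema5a, Trub2, Mymx, Shisa4 and Snhg16, the other genes named by rank, had ratios of 4.81, 5.55, 3.98, 3.06 and 4.71. Ribosomal protein genes had 0 of 82 past 2-fold in either direction and a median of -0.09, and electron transport genes a median of 0.10.

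**Figure D4:**
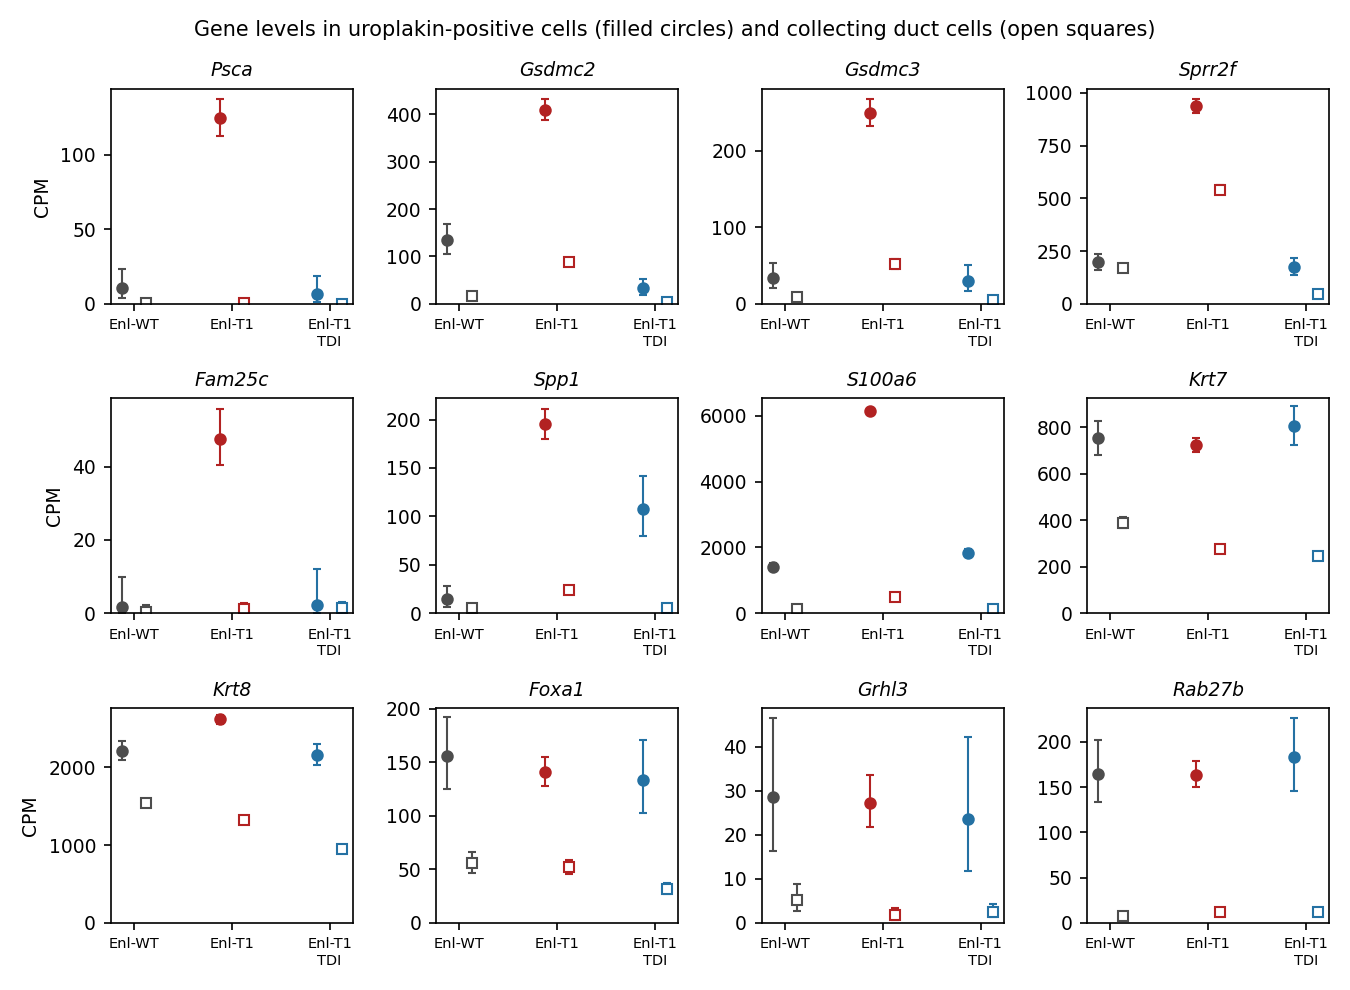
Levels of 12 genes (y axes, CPM from 0) in uroplakin-positive cells (filled circles) and collecting duct cells (open squares) of the 3 libraries (x axes), with exact 95% Poisson intervals. Psca, Gsdmc2, Gsdmc3, Sprr2f, Fam25c, Spp1 and S100a6 stand highest in Enl-T1 members, Psca for example at 10.8, 125 and 6.46 CPM in members, while Krt7, Foxa1, Grhl3 and Rab27b have overlapping intervals.

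Proliferation was scored as UMIs of at least 2 genes of a list of 5 (Hmmr, Cenpf, Ube2c, Top2a and Mki67) in a cell thinned to 2000 UMIs. By this measure 13 of 76 members were proliferating in Enl-WT (17.1%, 9.43 to 27.5), 29 of 206 in the Enl-T1 library (14.1%, 9.64 to 19.6) and 1 of 25 in the treated library (4%, 0.101 to 20.4). The differences were -3.03 points for Enl-T1 minus Enl-WT (-14.3 to 6.42) and -10.1 points for treated minus Enl-T1 (-16.8 to 6.87), and both intervals, which cover the counting of cells alone, spanned 0. Summed levels had more counts behind them, and 7.02% of all genes were past 2-fold lower in treated over Enl-T1. In treated over Enl-T1, 5 of 5 genes were past 2-fold lower: Mki67 had 309 and 4 UMIs (0.0890, 0.0241 to 0.230), Cenpf 506 and 11 (0.150, 0.0742 to 0.270), Top2a 583 and 14 (0.165, 0.0897 to 0.279), Ube2c 552 and 14 (0.174, 0.0947 to 0.295) and Hmmr 121 and 5 (0.284, 0.0906 to 0.682). A few dividing cells carry most UMIs of such genes, so the intervals understate the error. In Enl-T1 over Enl-WT the genes did not move together: Mki67 was lower (269 and 96.7 CPM), Ube2c higher (73.5 and 173 CPM), and Cenpf (0.921, 0.739 to 1.16) and Hmmr (1.11, 0.682 to 1.91) spanned equal levels. The proliferating share of ureteric tip cells, the branching end of the same epithelium, was 54.8%, 36.5% and 22.2%, and that of collecting duct cells 9.45%, 6.91% and 8.86%. In Enl-WT and Enl-T1 the interval of uroplakin-positive cells lay below that of tip cells. The part of free RNA in these per-cell calls was not tested.

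**Figure D5:**
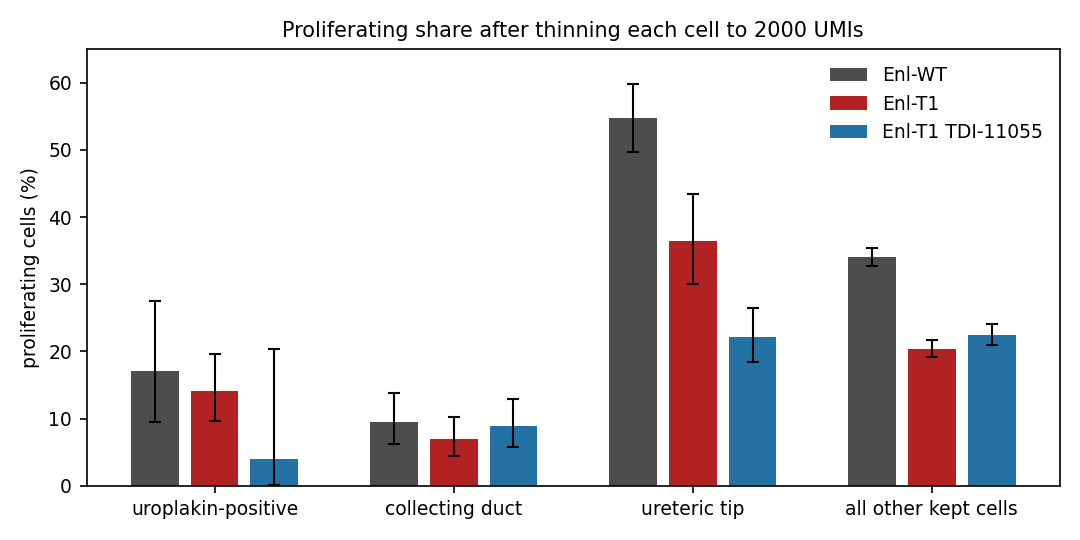
Proliferating cells (y axis, percent, each cell thinned to 2000 UMIs) among uroplakin-positive, collecting duct, ureteric tip and all other kept cells in Enl-WT (grey), Enl-T1 (red) and treated (blue), with exact 95% binomial intervals. The 3 libraries overlap in uroplakin-positive cells (17.1%, 14.1% and 4%), while ureteric tip cells run from 54.8% to 22.2%.

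Mllt1, the gene that encodes ENL, was detected at low level in uroplakin-positive cells, with 9, 47 and 10 UMIs (16.1, 14.7 and 21.5 CPM) and overlapping intervals. The 3′ counts do not tell the T1 form from the unmodified one, so this checks no label. Wt1, whose locus drives Cre, had 18, 6 and 0 UMIs in members, and 17 of the 18 in Enl-WT lay in the 9 members of high doublet score.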

How the data were processed

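Cells of 3 libraries of mouse kidney were analysed, 1 library per group. Per the labels, the authors aligned reads to mm10 with Cell Ranger 6.1.2, and the deposited matrices hold raw UMI counts of 32285 genes for barcodes called as cells, which no doublet or free-RNA correction had touched as far as the sources used here state. Groups came from the sample titles. The filter on genes and mitochondrial share was the one in the study's methods. The cells and gene lists were chosen with earlier results of these data known. Counts of the selected cells were summed per library and divided by their total (CPM). Intervals are exact (Poisson, Clopper-Pearson, and for ratios the binomial split of 2 counts), and those of differences between shares combine both shares' intervals. Collecting duct and endothelial cells were taken by 2 or more of Aqp2, Hsd11b2 and Fxyd4, or of Pecam1, Cdh5, Kdr and Emcn, and tip cells by Ret, Wnt11, Slco4c1 and Adamts18, with at least 3 UMIs and the same collagen limit.

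Genes named were those of the lists, the 20 leading genes, and up to 10 per direction past 2-fold with UMIs in at least 5 cells of the higher library, ranked by the interval bound nearest to 1, without mitochondrial, ribosomal protein, haemoglobin, Xist, Tsix and Y-linked genes. Genes compared by the number of uroplakins detected, or in other cell types, were chosen after values were seen. Some of the genes that met these rules are not reported here. Doublets were left in; as an alternative, the barcodes with the highest Scrublet scores (scanpy 1.11.5; 0.8% per 1000 barcodes, or 413, 346 and 333) were removed. Total counts were 37221435 in the Enl-WT matrix, 63336586 in the Enl-T1 matrix and 76619303 in the treated matrix. The ratio code was tested on simulated counts. Python 3.11.15 with scipy 1.17.1 was used.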

Additional observations from a re-analysis of the deposited data

Results flagged for a closer look

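Barcodes above the limit of 6000 genes, used only in the setting without that limit, also held uroplakin transcripts. The uroplakin rule was met by 1 of 55 such barcodes in Enl-WT (1.82%, 0.0460 to 9.72), by 70 of 309 in Enl-T1 (22.7%, 18.1 to 27.7) and by 24 of 577 in Enl-T1 TDI-11055 (4.16%, 2.68 to 6.13). Their median UMI count was 43993 (Enl-T1) and 52287.5 (Enl-T1 TDI-11055), with medians of 34 and 16.5 uroplakin UMIs. In them Krt19 stood at 1162 and 961 CPM, Psca at 97.3 and 0.725 CPM, and Col3a1 at 2.48 and 2.18 CPM. The doublet scores removed 13 of the 70 and 4 of the 24. Whether depth or 2 cells in a droplet placed these barcodes above the limit was not tested.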

How the results depend on the processing

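Each group had 1 library, so no value could be checked by leaving out a replicate, the treated library rests on 25 members, and no interval covers embryos or preparations. No paired analysis was possible because each group has 1 library. The Enl-T1 minus Enl-WT share of 3.54 points stayed within its interval under 5 of 9 alternatives and was 1.08 after thinning, 4.76 with no upper limit on genes, 0.299 in Y-linked cells and 4.63 in Xist cells. The treated minus Enl-T1 share of -4.09 stayed so under 7 of 9 and was -1.73 after thinning and -1.60 in Y-linked cells.

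For Enl-T1 over Enl-WT, the median of all genes (-0.29) was -0.15 without mitochondrial, ribosomal and haemoglobin genes in the total, 0 with median-of-ratios scaling and -0.17 with members thinned. Genes higher (413) and lower (996) numbered 739 and 392 with median-of-ratios scaling, 200 and 333 thinned, 195 and 422 at 100 UMIs or more, and 3554 and 3133 with no filter. Xist cells alone gave 882 higher, and the total without those gene classes gave 619 lower. For treated over Enl-T1, the median (0.06) was -0.045 thinned and -0.076 with no filter. Genes higher (368) and lower (629) numbered 122 and 328 thinned, 69 and 176 at 100 UMIs or more, and 1824 and 4470 with no filter; fewer or more genes compared account for the last 2 settings by construction. The proliferating shares stayed within their intervals under all 5 alternatives.

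Among named genes, the log2 ratio of Vcan in Enl-T1 over Enl-WT turned to 0.51 without high doublet scores. Medians of lists turned sign as follows. With median-of-ratios scaling, collecting duct transport was 0.042 and proliferation 0.18 in Enl-T1 over Enl-WT. In Xist cells, collecting duct markers were 0.13 and erythroid markers 0.017. In members that also met the rule after thinning, ureteric signals were 0.036. In treated over Enl-T1, erythroid markers were -0.0080 with each member weighted equally and -1.10 without high doublet scores. Not counting the member with mesothelium markers left 487 of 487 gene values and 30 of 30 list medians within their bounds. The alternatives on Xist cells and on members that meet the rule after thinning were chosen after seeing the data, and the cause of these changes was not tested.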
